A study of Homo sapiens with 13 samples.

Results

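The secretory transport machinery described here is the set of human genes whose symbols mark the translocation apparatus of the endoplasmic reticulum, the vesicle coats with their cargo receptors, the small GTPases of membrane traffic, and the proteins that tether and fuse vesicles. Members were taken by symbol pattern, from the families SEC, SRP, SSR, COP, TMED, LMAN, SPCS, RPN, DAD1, ARF, ARFGAP, SAR1, RAB, TRAPPC, VAMP, STX, KDELR and TRAM. The choice was made with earlier results of these data known. The patterns matched 72 genes, and 57 of them, read by 101 array features, had a feature with values on at least 7 of the 13 arrays. These 57 genes stand among 3841 named genes measured that often. By role, 15 belonged to translocation and the processing of nascent chains, 11 to coats and cargo receptors, 14 were GTPases of the ARF and RAB families, and 12 were SNAREs or tethers. The patterns also took in 5 genes left outside these groups by their symbols, which were RAB11FIP2, RAB3GAP2, RAB40AL, SEC14L1 and SEC23IP. RAB40AL belongs to the RAB family but is not counted among the GTPases here. At the limit of arrays measured, STX17 and STX4 stood just inside on 7 arrays, with mean ratios as deposited of -0.25 and -0.54. Just outside, on 6 arrays, were SRPRA at 0.26, SEC22A at 0.11, RAB11FIP1 at -0.15, RAB5IF at 0.69 and TRAPPC12 at -0.30.

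Expression was measured in the myeloma cell lines KMS12, H929 and SKMM1, infected with a doxycycline-inducible hairpin against the transcription factor IRF4 or with a control hairpin against luciferase, on Lymphochip spotted cDNA arrays. Each array held both cultures of 1 line, the IRF4 hairpin in Cy5 and the luciferase control in Cy3, and a gene with a negative log2 ratio had less mRNA in the IRF4 hairpin culture than in its control. For KMS12 the labels carry 3 names (1332, 1332b, 2046). They are called culture series here, a term the labels do not use. Doxycycline was used at 20 ng/ml. Each series has an uninduced array, an array from days 2-3 and an array from days 4-5. Series 1332 was sampled at days 3 and 5 with a further array at day 7, and the other 2 series at days 2 and 4. H929 had 2 arrays and SKMM1 had 1, all with hairpin 2046 at day 4 of the same dose. Whether repeats were separate cultures is not stated in the labels, so p-values measure the spread between arrays, which may be partly technical. Day within a window and series cannot be told apart, and the hairpin is labelled shi_1332, shi_1332b or shi_2046 by series, so hairpin and series cannot be told apart either. Ratios hold no absolute level, so whether the cells express the markers of plasma cells could not be read from them.

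Proteins bound for secretion are caught by the signal recognition particle while they are still being made, and are threaded into the endoplasmic reticulum through the Sec61 channel, where signal peptidase trims them and oligosaccharyl transferase adds sugars. COPII vesicles then carry them towards the Golgi, COPI vesicles bring escaped residents back, and RAB and ARF GTPases, tethers and SNAREs decide where each vesicle docks and fuses. Plasma cells, from which myeloma arises, carry this machinery in unusual amounts because they secrete antibody, and IRF4, PRDM1 and XBP1 are known regulators of that state.

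Because IRF4 and the unfolded protein response factors bind known DNA elements, the 250 bases before each RefSeq gene start (build GRCh38.p14) were searched on both strands for 4 of them. These were the letters TGACGTGG (UPRE, the element of XBP1 and ATF6), CCAAT and CCACG with any 9 bases between (ERSE, an element of ATF6), GAAA repeated with any 2 bases between (the IRF repeat) and GGAA and GAAA with any 2 bases between (the composite element of ETS and IRF factors). The IRF repeat and the composite element share their second part, and no match overlapped another. Of the 57 members, 50 were in the promoter table, and RAB2A, RAB39B, RAB12, TRAM1, STX17, RAB33B and RPN1 were not. The UPRE letters stood before 4 of the 50, SEC62, SSR3, SSR4 and STX5, against 0.78% of the 27305 genes in the table. The IRF repeat stood before RAB27A and SRP54, against 3.71% of all genes. The composite element stood before SEC14L1 alone among the 50, against 2.99% of all genes, and the ERSE before none of them, against 0.0916%. No member held more than 1 of these elements. The stretches around the UPRE and IRF matches are shown because their genes differ in the results that follow, SEC62, SRP54 and RAB27A being low on the early arrays and SSR3, SSR4 and STX5 not. Each reads along the strand of its gene, with the matched letters, or their reverse complement, in capitals. A match describes the letters only.
SEC62, chr3:169966755-169966806, plus strand: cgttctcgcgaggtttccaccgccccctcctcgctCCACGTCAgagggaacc
SSR3, chr3:156554126-156554201, minus strand: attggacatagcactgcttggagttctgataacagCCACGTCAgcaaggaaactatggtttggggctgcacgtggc
SSR4, chrX:153794504-153794581, plus strand: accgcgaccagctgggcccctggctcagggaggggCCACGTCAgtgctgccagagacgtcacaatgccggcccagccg
STX5, chr11:62832052-62832102, minus strand: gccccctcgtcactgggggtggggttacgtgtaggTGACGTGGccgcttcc
SRP54, chr14:34982811-34982890, plus strand: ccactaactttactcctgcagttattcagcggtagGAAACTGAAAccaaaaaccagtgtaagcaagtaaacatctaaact
RAB27A, chr15:55319319-55319373, minus strand: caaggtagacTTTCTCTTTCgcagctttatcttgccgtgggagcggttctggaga

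IRF4 itself checked the labels. In series 1332, 1332b and 2046 its mRNA stood at 125%, 109.9% and 128% of control on the uninduced arrays, at 42.5%, 28.2% and 54.0% at days 2-3 and at 62.2%, 55.5% and 60.3% at days 4-5. It stood at 59.9% at day 7, at 27.95% and 24.5% in H929 repeats 1 and 2 and at 23.5% in SKMM1. IRF4 was thus below control on all 10 induced arrays, deepest in H929 and SKMM1, and higher at days 4-5 than at days 2-3 in each KMS12 series. Between 45 and 57 of the 57 members had a value on an array. After centring, features still differed by how often they were measured. Those on all 13 arrays had a median log2 ratio of 0.37 on the uninduced array of series 2046, against -0.10 to 0.09 on the other 12 arrays. Those on 7 to 9 arrays ran from -0.46 on the uninduced array of series 1332, with -0.41 on that of series 2046, to 0.40 on the day 5 array of series 1332.

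**Figure D1:**
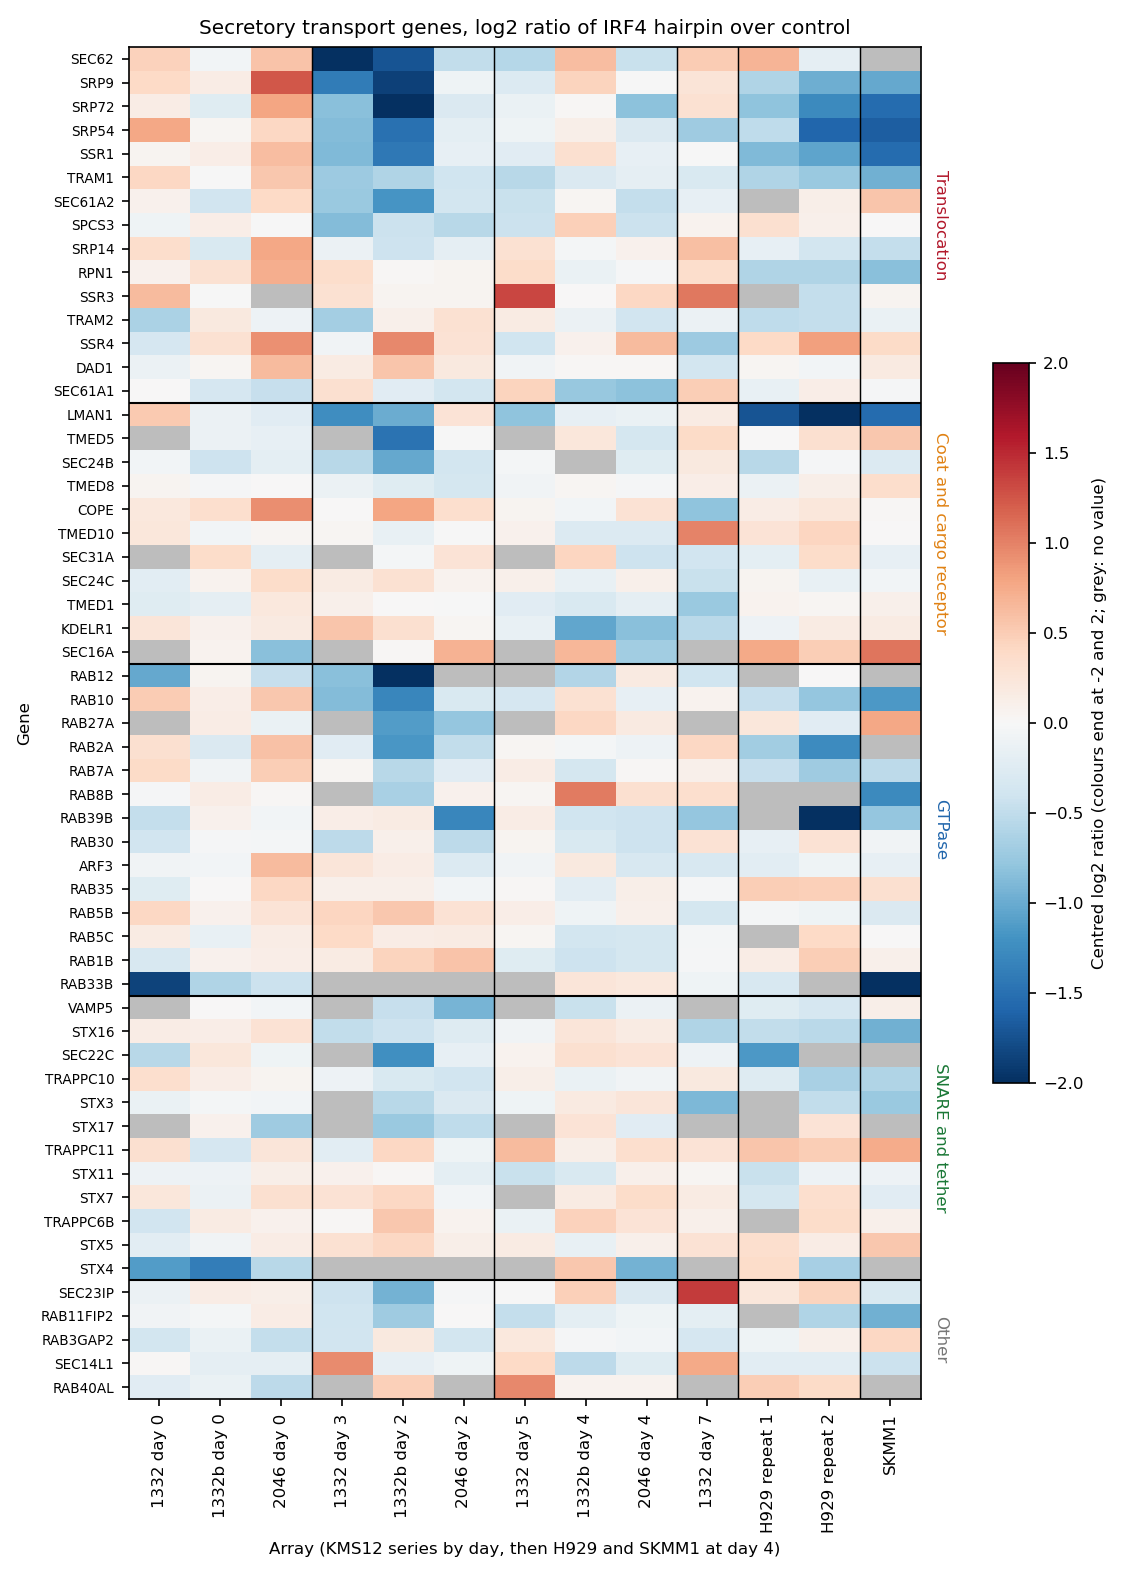
Centred log2 ratio of the IRF4 hairpin over control for the 57 members (rows, by role and then by the difference at days 2-3) on the 13 arrays (columns: KMS12 uninduced, days 2-3, days 4-5 and day 7, then H929 and SKMM1 at day 4). Colours end at -2 and 2 and grey marks no value, and the blue cells gather in the upper translocation rows on the arrays of days 2-3, H929 and SKMM1.

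In KMS12 at days 2-3 against the uninduced arrays, the question was how the machinery stood while IRF4 was lowest in this line. No member passed the test across all genes (limma, Benjamini-Hochberg adjusted p under 0.05), and no gene of the 5980 tested did (0% called). The members with an unadjusted p under 0.05 were 13 of 54 tested (24.1%), all below the uninduced arrays, against a background of 14.8% of all genes lower and 6.56% higher. They were uneven by role, with 8 of 15 translocation genes (53.3%), 4 of 13 GTPases (30.8%), 1 of 11 SNAREs and tethers (9.09%) and 0 of 11 coat and receptor genes. The median log2 difference was -0.64 for translocation, -0.11 for coats (0.051 with features centred by how often they were measured), -0.18 for GTPases and -0.31 for SNAREs and tethers, beside 0.02 for all genes tested. The translocation median was -0.41 over features on all 13 arrays and -0.47 with that centring. The signs of the other 3 were not stable. Without the day 2 array of series 2046 the GTPase median was 0.0287 and that of SNAREs and tethers 0.0833, without the uninduced array of series 2046 SNAREs and tethers had 0.0448, and without the day 3 array of series 1332 coats had 0.0162. Of the 43 members measured on all 6 arrays, 11 lay below every uninduced array and 1 above, against 21.9% and 8.81% of all genes. Translocation genes made up 7 of those 11. Without the uninduced array of series 2046, 7 of 48 members (14.6%) in place of 13 of 54 had an unadjusted p under 0.05, against 16.5% of all genes in either direction. Without the day 2 array of series 1332b 8 of 44 did (18.2%), against 15.4% of all genes. With only features measured on all 13 arrays 4 members passed, RAB10, SRP54, SRP9 and SSR1, where 6.07% of all genes were called lower and 1.46% higher.

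The signal recognition particle held the lowest values as a unit. SRP9, which with SRP14 forms the domain that pauses translation, had log2 ratios of -1.40, -1.86 and -0.08 at days 2-3 in series 1332, 1332b and 2046, against 0.39, 0.15 and 1.25 on the uninduced arrays. All 3 induced arrays lay below all 3 uninduced ones, but the 2046 array was near 0 and its uninduced partner was the highest. The log2 difference was -1.71 (SE 0.44, limma adjusted p = 0.106), and its 3 features agreed in sign, at -1.99, -1.74 and -1.41. SRP54, the GTPase subunit that grips the signal sequence, had -0.87, -1.49 and -0.20 at days 2-3, against 0.78, 0.04 and 0.42 on the uninduced arrays. The groups did not overlap, and the difference was -1.27 (SE 0.37, limma adjusted p = 0.111). SRP72, a large scaffold subunit of the particle, had -0.84, -2.21 and -0.29, against 0.15, -0.25 and 0.79 uninduced. The groups barely cleared each other, and the difference of -1.35 (SE 0.46, limma adjusted p = 0.144) was spread over 4 features between -1.75 and -1.08. SRP14, the partner of SRP9, had -0.12, -0.42 and -0.18, against 0.35, -0.30 and 0.77 uninduced. Its groups overlapped, and its difference of -0.51 (SE 0.27, limma adjusted p = 0.301) was smaller than that of the other 3 subunits. Over the 4 subunits the median difference was -1.31.

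Around the Sec61 channel the genes split. SEC62, an accessory protein of the channel, had -4.49, -1.73 and -0.50 at days 2-3, against 0.46, -0.05 and 0.57 uninduced. The -4.49 rests on 1 feature read at -7.50 in series 1332, whose other feature there read -1.48, so the difference of -2.56 (SE 0.79, limma adjusted p = 0.120) hangs partly on a single spot. The features gave -3.66 and -1.47. SSR1, a subunit of the translocon-associated complex TRAP that aids some signal sequences, had -0.88, -1.43 and -0.16, against 0.06, 0.13 and 0.61 uninduced. The groups did not overlap (difference -1.09, SE 0.32, limma adjusted p = 0.112), and 2 of its features gave -1.23 and -1.53 while the third, on 10 arrays, gave -0.28. TRAM1, a membrane protein that sits beside the channel, had -0.72, -0.60 and -0.39, against 0.41, -0.01 and 0.54 uninduced. It was the most even of these genes, with a difference of -0.89 (SE 0.22, limma adjusted p = 0.106). Its features disagreed, since 2 gave -1.70 and -1.13 and the other, measured on all 13 arrays, gave 0.17. SEC61A2, the less studied of the channel's alpha subunits, had -0.75, -1.19 and -0.36, against 0.09, -0.38 and 0.40, a difference of -0.80 (SE 0.30, limma adjusted p = 0.168) with groups that overlapped slightly. SEC61A1, the main alpha subunit, had 0.32, -0.22 and -0.36, against 0.01, -0.33 and -0.46, and its difference was 0.18 (SE 0.34). The alpha subunits are near-identical paralogs, and spotted cDNAs may not tell them apart. The remaining TRAP subunits, SSR3 at -0.17 (SE 0.40) and SSR4 at 0.10 (SE 0.39), and TRAM2 at 0.08 (SE 0.31), stood close to 0.

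Signal peptidase and oligosaccharyl transferase differed as well. SPCS3, a signal peptidase subunit, had -0.87, -0.43 and -0.56 at days 2-3, against -0.08, 0.14 and 0.00 uninduced, with all 3 induced arrays lower (difference -0.64, SE 0.27, limma adjusted p = 0.212). DAD1, an oligosaccharyl transferase subunit read by 8 features, had 0.16, 0.56 and 0.20, against -0.12, 0.04 and 0.64. Its difference was 0.12 (SE 0.24), and its features ranged between -0.01 and 0.60. RPN1, the ribophorin of the same enzyme, had 0.35, 0.03 and 0.05, against 0.08, 0.30 and 0.73, a difference of -0.23 (SE 0.24). Neither subunit of the transferase departed from the uninduced arrays by more than its error.

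**Figure D2:**
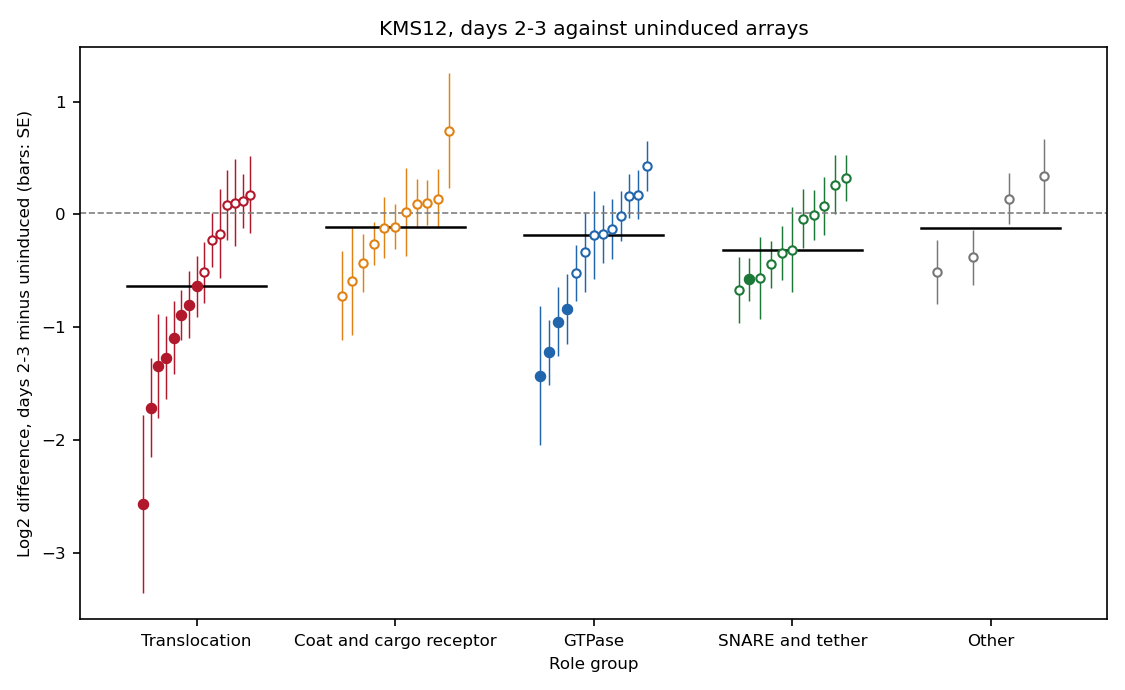
Log2 difference of each member, KMS12 days 2-3 minus uninduced arrays, by role group (horizontal), with bars of 1 SE, filled points for unadjusted p under 0.05, a black line at the group median and a dashed line at the median of all genes. The translocation group reaches lowest, with 8 filled points and a median of -0.64, and no coat gene is filled.

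Among coats and cargo receptors the lowest difference was that of LMAN1, the lectin that carries blood clotting factors and other glycoproteins out of the endoplasmic reticulum. It had -1.25, -0.995 and 0.28 at days 2-3, against 0.53, -0.12 and -0.22 uninduced, so the groups overlapped (difference -0.72, SE 0.40, limma adjusted p = 0.320). Its features disagreed: the feature measured on all 13 arrays gave -1.34, and the other, on 7 arrays, gave 0.37. SEC24B, a COPII cargo adaptor, had -0.55, -1.02 and -0.36, against -0.06, -0.41 and -0.19, a difference of -0.43 (SE 0.25). SEC24C, another such adaptor, had a difference of 0.10 (SE 0.22), SEC31A of the outer COPII cage 0.02 (SE 0.39) and COPE of the COPI coat -0.12 (SE 0.27). SEC16A, which organises exit sites, had 0.03 and 0.69 on the 2 arrays where it was measured at days 2-3, against 0.07 and -0.83 uninduced (difference 0.74, SE 0.51). The TMED cargo receptors had differences of -0.59 for TMED5, -0.26 for TMED8, -0.11 for TMED10 and 0.10 for TMED1, and TMED8 lay below every uninduced array. KDELR1, the receptor that returns escaped residents, had 0.56, 0.33 and 0.04, against 0.24, 0.09 and 0.17, a difference of 0.14 (SE 0.26). The group as a whole lay on both sides of 0, with 6 genes below and 5 above.

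Of the GTPases, RAB10, which directs vesicles to the plasma membrane and shapes the endoplasmic reticulum, had -0.88, -1.31 and -0.31 at days 2-3, against 0.51, 0.13 and 0.54 uninduced. All 3 induced arrays were lower, and the difference was -1.22 (SE 0.29, limma adjusted p = 0.106), the smallest p of any member. RAB27A, which docks secretory granules, was measured in 2 of the series and had -1.11 and -0.78, against 0.14 and -0.14 (difference -0.95, SE 0.30, limma adjusted p = 0.145). RAB2A, which acts between the endoplasmic reticulum and the Golgi, had -0.22, -1.16 and -0.49, against 0.32, -0.28 and 0.59 (difference -0.84, SE 0.31, limma adjusted p = 0.159), with overlap. RAB12, a GTPase of recycling membranes, had -0.84 and -2.97 on 2 arrays, against -1.03, 0.06 and -0.46, and its difference of -1.43 (SE 0.62, limma adjusted p = 0.233) came from the array of series 1332b. RAB1B, which is needed for traffic out of the endoplasmic reticulum, was the 1 member above every uninduced array, with 0.16, 0.44 and 0.58 against -0.33, 0.08 and 0.14 (difference 0.43, SE 0.22, limma adjusted p = 0.291). The GTPases of endosomes gave 0.17 for RAB5B, 0.18 for RAB5C and -0.52 for RAB7A, and ARF3 gave -0.13. RAB genes have many paralogs, so a cDNA feature may take up RNA of a relative.

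Among SNAREs and tethers, STX16, a syntaxin of the trans-Golgi, had -0.49, -0.42 and -0.26 at days 2-3, against 0.14, 0.14 and 0.28 uninduced. It lay lower on every induced array by a modest amount (difference -0.57, SE 0.19, limma adjusted p = 0.139), and its 2 features gave -0.55 and -0.60. TRAPPC10, a subunit of a tethering complex, had -0.11, -0.30 and -0.39, against 0.33, 0.13 and 0.05 (difference -0.44, SE 0.21, limma adjusted p = 0.246), again without overlap. VAMP5, a SNARE first described in muscle, had -0.46 and -0.92 on 2 arrays, against 0.00 and -0.05 (difference -0.67, SE 0.29, limma adjusted p = 0.235). STX5, the syntaxin of transport between the endoplasmic reticulum and the Golgi, had a difference of 0.32 (SE 0.20), and TRAPPC11, STX7 and STX11 lay at -0.04, 0.08 and 0.00.

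**Figure D3:**
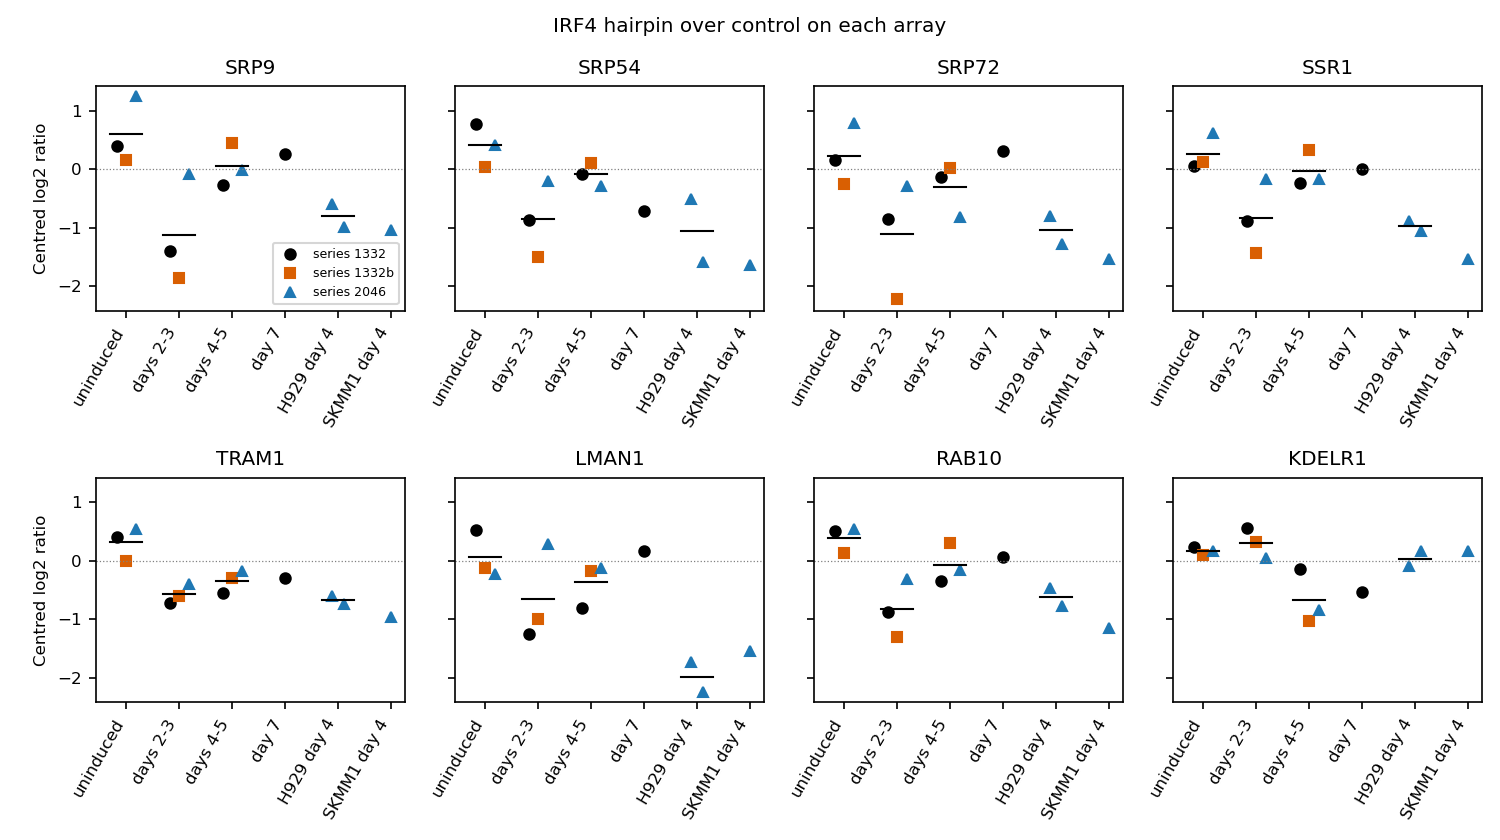
Centred log2 ratio on each array for SRP9, SRP54, SRP72, SSR1, TRAM1, LMAN1, RAB10 and KDELR1, with the KMS12 windows in time order and H929 and SKMM1 to the right, symbols by culture series and short lines at group means. The series 2046 triangle of days 2-3 lies nearest 0 for SRP9, SRP54, SRP72 and SSR1, and KDELR1 is low at days 4-5 and not at days 2-3.

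The count of members passing turned on 1 array, as it also did on the features kept (above) and on the level compared with. The day 2 array of series 2046 carried the weakest loss of IRF4, at 54.0% of control, and for SRP9, SRP54, SRP72, SEC62, SSR1, TRAM1 and RAB10 its value was nearest 0 of the 3. Without it, 8 members passed the test, all lower: SRP9 at -2.23 (SE 0.36, limma adjusted p = 0.00697), RAB10 at -1.48 (adjusted p = 0.0105), SEC62 at -3.44 (adjusted p = 0.0121), SSR1 at -1.43 (adjusted p = 0.0134), SRP54 at -1.59 (adjusted p = 0.0201), SRP72 at -1.76 (adjusted p = 0.0314), TRAM1 at -0.98 (adjusted p = 0.0324) and LMAN1 at -1.19 (adjusted p = 0.0403). In that fit 11.5% of all genes were called lower and 0.863% higher. Of the 8, 6 were translocation genes. The uninduced array of series 2046 read highest of its group for SRP9, SRP72, SEC62, SSR1, TRAM1 and RAB10. Measured from its own uninduced array, the fall in series 2046 was still the smallest of the 3 series for SRP9, SRP54, SEC62, SSR1 and RAB10. For SRP72 and TRAM1 it was not. With the arrays of days 2-3 set against 0 in place of the uninduced arrays, 6 members passed, all lower: RAB10 (-0.83), SEC62 (-2.24), RAB27A (-0.95), TRAM1 (-0.57), SSR1 (-0.83) and RAB12 (-1.90), with limma adjusted p between 0.0390 and 0.0491, where 6.54% of all genes were called lower and 1.77% higher. A dye effect particular to a gene stays in a test against 0, since no array had its dyes swapped.

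At days 4-5 against the uninduced arrays, with the same uninduced arrays as before, the members stood closer to 0. None passed, and no gene of 6521 did (0% called). At an unadjusted p under 0.05 there were 2 members lower and 2 higher of 57 (3.51% each), near the background of 1.82% lower and 3.8% higher. Of 45 members measured on all 6 arrays 3 lay below every uninduced array and 2 above, against 7.15% and 4.73% of all genes. The medians were -0.29 for translocation, -0.09 for coats, -0.14 for GTPases and 0.16 for SNAREs and tethers, beside 0.03 for all genes. Over features on all 13 arrays the translocation median was -0.06. Leaving out 1 array moved it between -0.45 (without the day 4 array of series 1332b) and -0.15 (without the uninduced array of series 2046). Coats reached -0.26 and GTPases -0.24 without the uninduced array of series 1332b, GTPases -0.0263 without that of series 2046, and SNAREs and tethers 0.073 without that of series 1332b. KDELR1 had -0.14, -1.03 and -0.84 at days 4-5 in series 1332, 1332b and 2046, against 0.24, 0.09 and 0.17 uninduced. All 3 arrays were below all uninduced ones, by -0.84 (SE 0.26, limma adjusted p = 0.804). TRAM1 had -0.55, -0.29 and -0.18, against 0.41, -0.01 and 0.54 uninduced, again without overlap (difference -0.66, SE 0.22, limma adjusted p = 0.804). SRP9 had -0.27, 0.44 and -0.01, SRP54 -0.08, 0.11 and -0.29, and SRP72 -0.13, 0.02 and -0.82, so that each of the 3 subunits overlapped its uninduced arrays. Their differences were -0.55, -0.50 and -0.54. RAB33B, a Golgi GTPase, had 0.24 and 0.21 on 2 arrays, against -1.85, -0.60 and -0.44 (difference 1.19, SE 0.45, limma adjusted p = 0.804), and rests on a feature measured on 8 arrays. RAB40AL had 0.96, 0.07 and 0.07, against -0.23, -0.13 and -0.53 (difference 0.66, SE 0.29, limma adjusted p = 0.804), and its feature may also take up RNA of close RAB40 relatives. STX4, a syntaxin of the plasma membrane, and SSR3 gave 0.81 (SE 0.51) and 0.27, and COPE, RPN1 and TMED10 gave -0.40, -0.30 and -0.23. RAB33B, RAB40AL and STX4 were each read by a feature on 7 to 9 arrays. Features of that class had medians of -0.46, -0.025 and -0.41 on the uninduced arrays of series 1332, 1332b and 2046. At days 4-5 the class stood at 0.40, 0.10 and -0.05. That shared rise was not taken out of the differences of these 3 genes.

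Days 4-5 were also set against days 2-3, with the same arrays of both windows as before. A member that reads low on the arrays of days 2-3 tends to read higher against them. This comparison is therefore not independent of the early one. None of 54 members and none of 6072 genes passed (0% called), and 8 members were higher and 2 lower at an unadjusted p under 0.05 (14.8% and 3.70%), against 9.12% and 4.55% of all genes. Out of 10 such members in all, 2 of 46 (4.35%) were left without the day 4 array of series 1332b, 3 of 44 (6.82%) without its day 2 array and 5 of 53 (9.43%) without the day 3 array of series 1332, against 8.07%, 8.78% and 9.09% of all genes in those fits. Of 42 members measured on all 6 arrays 4 lay above every array of days 2-3 and 6 below, against 12.1% and 8.97% of all genes. The 8 were RAB27A (1.24, SE 0.30), SEC62 (2.11, SE 0.79), SRP9 (1.17, SE 0.44), RAB10 (0.76, SE 0.29), STX16 (0.50, SE 0.19), SSR1 (0.80, SE 0.32), SEC22C (0.92, SE 0.36) and RAB12 (1.70, SE 0.68). Limma adjusted p lay between 0.291 and 0.335 for them. All of these but SEC22C were also among the members low at days 2-3 at an unadjusted p under 0.05. The lower ones were KDELR1 (-0.98, SE 0.26) and RAB1B (-0.73, SE 0.22), each with a limma adjusted p of 0.291. Without the day 2 array of series 2046, SRP9 (1.68, limma adjusted p = 0.0348) and SEC62 (2.98, limma adjusted p = 0.0412) passed as higher, where 4.06% of all genes were called higher and 0.132% lower. IRF4 was itself 0.56 higher at days 4-5 (SE 0.25, limma adjusted p = 0.354). The single array at day 7 in series 1332 gave 0.26 for SRP9, 0.30 for SRP72, 0.00 for SSR1 and 0.07 for RAB10, beside -0.70 for SRP54 and -0.30 for TRAM1, with no replicate. TRAM1 was the 1 member below 0 on all 10 induced arrays, among members measured on at least 9 of them, where 2.5% of all genes lay below 0 on every such array and 1.66% above. As a share of those members, 1 is no more than this background, so it does not set the members apart. The result for TRAM1 held for the mean of its features. Of these, 1 feature measured on all 13 arrays lay below 0 only at days 5 and 7 of series 1332 (-0.745 and -0.532). It lay above 0 on the remaining induced arrays.

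**Figure D4:**
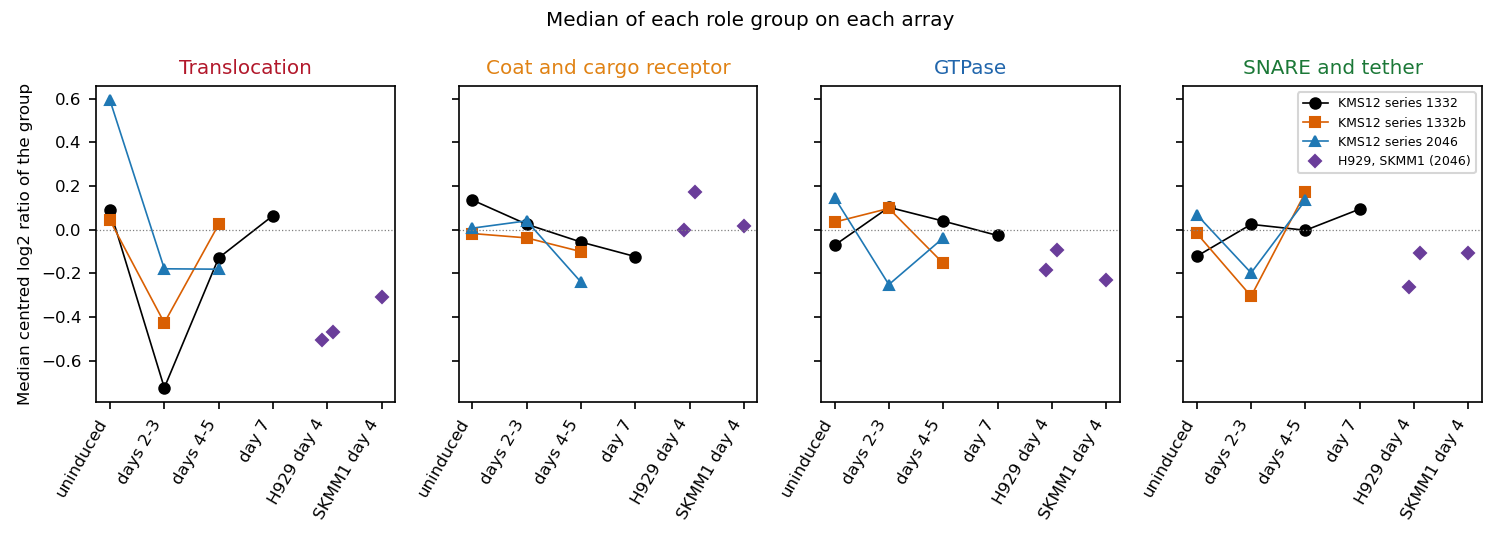
Median centred log2 ratio of the translocation, coat, GTPase and SNARE and tether members on each array, with lines joining the arrays of a KMS12 series in time order. Within series 1332 and within series 1332b the translocation median is lowest at days 2-3, at -0.72 and -0.43. It stands at 0.59 on the uninduced array of series 2046 and lies between -0.51 and -0.31 in H929 and SKMM1.

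Hairpin 2046 at day 4 in 3 cell lines, taken as 1 value a line with the H929 repeats averaged, was set against 0 to see which members lay away from control across the lines, KMS12 among them. None of 49 members and none of 5134 genes passed (0% called). At an unadjusted p under 0.05, 9 members lay below 0 (18.4%) and 2 above, against 9.19% and 5.94% of all genes, and 5 of the 9 were among the 14 translocation genes tested. Without SKMM1 the count of 11 was 5 of 56 (8.93%), against 7.18% of all genes, and without KMS12 it was 18 of 49 (36.7%), against 31.8% of all genes. All 3 lines lay below 0 for 16 members and above 0 for 6, against 19.8% and 21.3% of all genes. SRP72 had -1.28 and -0.80 in the H929 repeats 2 and 1, -1.53 in SKMM1 and -0.82 in KMS12 series 2046 (mean -1.13, SE 0.20, limma adjusted p = 0.278). One of its features, measured on 12 arrays, read -3.29 and -1.24 in H929 and -3.47 in SKMM1, while the other 3 lay between -1.51 and -0.40 there. SRP54 had -1.58 and -0.51 in H929, -1.64 in SKMM1 and -0.29 in KMS12 (mean -0.99, SE 0.27, limma adjusted p = 0.278). SSR1 had -1.06 and -0.89 in H929, -1.53 in SKMM1 and -0.17 in KMS12 (mean -0.89, SE 0.28, limma adjusted p = 0.278). For all 3 genes SKMM1 was lowest, and for SRP54 and SSR1 KMS12 was nearest 0. RAB39B, a neuronal RAB also found in immune cells, had a mean of -1.24 (SE 0.40), with -2.53 on the 1 H929 array that measured it. SSR4 lay above 0 with 0.82 and 0.41 in H929, 0.39 in SKMM1 and 0.63 in KMS12 (mean 0.54, SE 0.17, limma adjusted p = 0.278), on the other side from SSR1 of the same TRAP complex. The uninduced array of KMS12 series 2046 already read 0.91 for SSR4, and the KMS12 difference at days 4-5 against uninduced was -0.19. H929 and SKMM1 had no uninduced array. TRAPPC11, like SSR4, was above 0, with 0.49 and 0.56 in H929, 0.74 in SKMM1 and 0.34 in KMS12 (mean 0.54, SE 0.18).

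Of the members measured on both H929 arrays, LMAN1 lay furthest from control. It had -2.24 and -1.72 in the H929 repeats 2 and 1 and -1.54 in SKMM1, equal to 21.2%, 30.3% and 34.3% of control, against -0.80, -0.17 and -0.13 in KMS12 at days 4-5. H929 against 0, a comparison added after the data were seen, gave -1.98 (SE 0.34, limma adjusted p = 0.0489). It was the 1 member to pass there, where 0.391% of all genes were called lower and 0.0206% higher. Only its 13-array feature was measured in H929 and SKMM1, and that feature read -0.80, -0.28 and -0.65 in KMS12 at days 4-5. H929 minus KMS12 at days 4-5 was -1.61 for LMAN1 (SE 0.44, limma adjusted p = 0.213). In that comparison no member of 45 and no gene of 4758 passed (0% called), and 6 members were lower and 3 higher at an unadjusted p under 0.05 (13.3% and 6.67%), against 8.68% and 4.56% of all genes. Without H929 repeat 2 the count of 9 was 2 of 47 (4.26%), against 4.98% of all genes, and without the KMS12 day 4 array of series 1332b it was 5 of 38 (13.2%), against 10.6%. With features on all 13 arrays STX16 alone of the members passed, as lower, where 1.86% of all genes were called lower and 0.798% higher. That fit read STX16 by 1 feature. Its other feature, on 11 arrays, had -0.154 and -0.012 in H929, against -0.157, -0.102 and 0.224 in KMS12 at days 4-5. Of 37 members measured on all 5 arrays 13 lay below every KMS12 array and 5 above, against 25.5% and 14.7% of all genes. STX16 (-0.63), RAB2A (-0.94), SSR1 (-0.95), RPN1 (-0.67) and SRP54 (-0.96) were the other lower ones, and RAB1B (0.66), KDELR1 (0.71) and TMED10 (0.51) the higher ones. IRF4 was also lower in H929 than in KMS12 by -1.18 (SE 0.28, limma adjusted p = 0.192), and what part that depth of loss had in these differences was not tested. Cell line was also mixed with hairpin, series and day in this comparison. Both H929 arrays had hairpin 2046 at day 4, while the KMS12 arrays came from series 1332 at day 5 and from 1332b and 2046 at day 4.

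With the KMS12 array left out of the 3-line test, so that H929 and SKMM1 alone were set against 0, 9 members passed. Those lower were LMAN1 (-1.76), SRP54 (-1.34), SRP72 (-1.29), SSR1 (-1.25), SRP9 (-0.91), RAB39B (-1.65), TRAM1 (-0.82) and RAB10 (-0.88), and SEC16A (0.85) was higher. Limma adjusted p ran between 0.0237 and 0.0459, and 8.31% of all genes were called lower and 3.25% higher. This fit holds 2 values, 1 a line, with the spread pooled over all genes. Of the TRAM1 features, 1 lay above 0 in both lines, at 0.27 and 0.09 in H929 repeats 2 and 1 and 0.07 in SKMM1.

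The early KMS12 arrays and the arrays of H929 and SKMM1 share no sample. Of the 13 members low at days 2-3, 9 were measured on all 3 arrays of the other lines, and 7 of these lay below 0 on each (77.8%): SRP9, SRP54, SRP72, SSR1, TRAM1, RAB10 and STX16. For TRAM1 this held for the mean of its features, while 1 feature lay above 0 on all 3 arrays. SPCS3 was the exception on the other side, above 0 on all 3. It had 0.10 and 0.33 in H929 repeats 2 and 1, but only 0.007 in SKMM1. The share was close to that of all genes low at days 2-3, of which 470 of 625 lay below 0 on all 3 arrays (75.2%), so it does not set the members apart. Of the other members 11 of 32 did so (34.4%), against 24.1% of other genes. Over all 41 members 18 lay below 0 on all 3 arrays (43.9%), while 30.4% of all genes lay below and 31.1% above. Over the 41 members with both values the correlation was r = 0.68 and rho = 0.56, as a description across genes, which are not independent and share hybridisation and dye. RPN1 lay below 0 on all 3 arrays of H929 and SKMM1, at -0.61, -0.60 and -0.84, although its KMS12 values at days 2-3 were 0.35, 0.03 and 0.05.

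**Figure D5:**
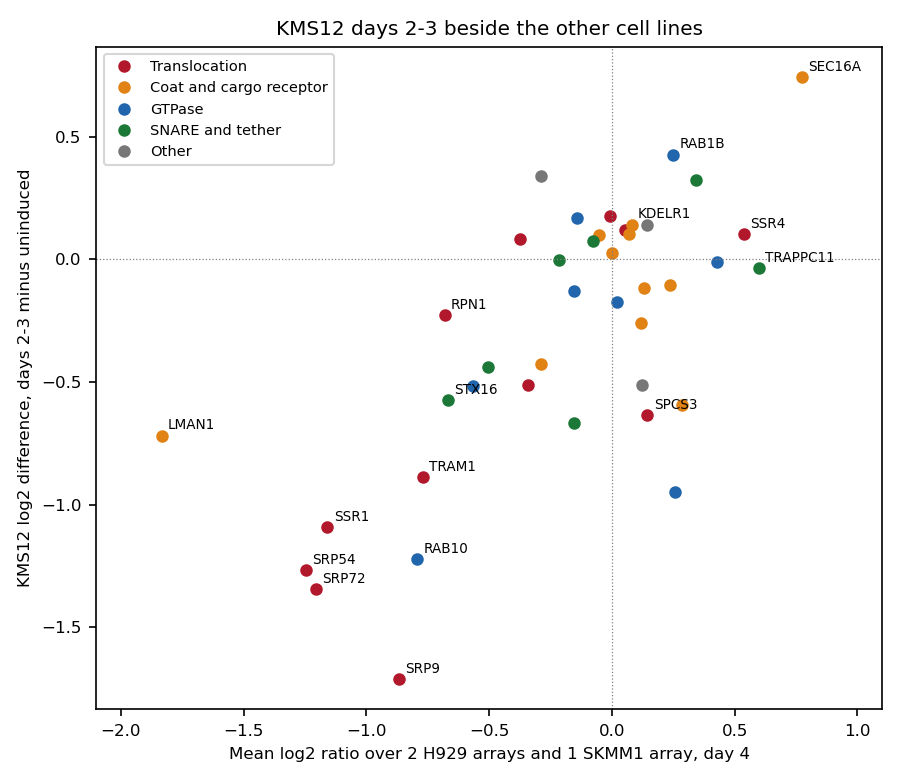
KMS12 log2 difference, days 2-3 minus uninduced (vertical), against the mean log2 ratio of the 2 H929 arrays and the SKMM1 array at day 4 (horizontal), for the 41 members with both values, coloured by role. SRP9, SRP54, SRP72, SSR1, TRAM1 and RAB10 sit low on both axes and LMAN1 lies furthest left at -1.83, while most coat genes sit near the centre.

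Other genes of the pathway, from lists outside the symbol patterns, gave a mixed picture at days 2-3. Over all genes tested there, 14.8% had an unadjusted p under 0.05 and lay lower, and 6.56% lay higher. Of 4 exit-site and Golgi genes tested, 3 had an unadjusted p under 0.05 and lay lower: MCFD2, the partner of LMAN1 in cargo capture (-1.06, SE 0.29, limma adjusted p = 0.107), GOLPH3, a Golgi membrane protein (-0.99, SE 0.29, limma adjusted p = 0.112), and GOLGB1, the golgin giantin (-1.15, SE 0.39, limma adjusted p = 0.142). The other gene, ERGIC3, gave 0.37. Of 5 clathrin and adaptor genes 1 did so, CLTC, the clathrin heavy chain (-1.43, SE 0.37, limma adjusted p = 0.107), and of 6 other fusion and tethering genes 1, EXOC5 of the exocyst (-0.95, SE 0.26, limma adjusted p = 0.107). DDOST, the 1 further oligosaccharyl transferase gene tested, gave 0.16, and RABAC1 and RABIF, which act on RAB proteins, 0.17 and 0.08. At days 4-5 against uninduced EXOC7, of the exocyst, gave 1.32 (SE 0.30, limma adjusted p = 0.804) and was the 1 gene of these lists with an unadjusted p under 0.05. Over all genes tested in that comparison, 3.8% had such a p and lay higher, and 1.82% lay lower. EXOC7 is in the class of features on 7 to 9 arrays, whose medians were also higher at days 4-5 than on the uninduced arrays.

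The regulators of secretory genes were read beside the members. At days 2-3 all 5 measured lay below the uninduced arrays, XBP1 at -0.33 (SE 0.265), ATF6 at -0.63 (SE 0.25), PRDM1 at -0.61 (SE 0.31), ATF4 at -0.63 (SE 0.26) and DDIT3 at -0.27 (SE 0.26), with 2 at an unadjusted p under 0.05 and none passing. In the 3 lines with hairpin 2046 all 5 lay below 0, with 3 at an unadjusted p under 0.05. Over all genes tested at days 2-3, 14.8% were lower at such a p, and 2910 of 5980 lay below the uninduced arrays. For the 3 lines the shares were 9.19% at such a p and 2599 of 5134 below 0. Plasma cell markers lay below the uninduced arrays for 7 of 8 at days 2-3, with a median of -0.49, led by JCHAIN at -1.43, and for 8 of 8 at days 4-5, with a median of -0.41. XBP1 and PRDM1 stand among both the regulators and these markers. Over all genes 3074 of 6521 lay below at days 4-5. Of markers of other cells at days 2-3, 4 of 4 for earlier B cells (median 0.45, CIITA at 1.22), 4 of 4 for T cells (median 0.24) and 3 of 3 for stromal and erythroid cells (median 0.43) lay above the uninduced arrays, and CD14, the 1 myeloid marker tested, lay below at -0.89. Over all genes 3070 of 5980 lay above at days 2-3. No marker passed the adjusted test. The part of these shifts in the members' values was not tested. Both cultures of an array came from 1 myeloma line, so markers of other cell types do not count such cells here. Their signal over background is unknown. Within a line, fewer cells holding an mRNA and less of it per cell cannot be told apart in such arrays.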

How the data were processed

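The table the authors deposited gives a log ratio for 15246 features on 13 arrays, taken here as log2 because values run from -9.78 to 7.51. Nothing in the sources used here gives the log base, normalization, background correction or spot filter. Array intensities were not used here, so signal over background is unknown and the number of arrays limits precision. Direction follows the dyes in the labels. Pairs of arrays correlated down to -0.33, and since the labels state the dyes, the direction was kept. Names came from the platform annotation (10169 features with 1 symbol, 4 with several, 5073 with none).

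Features on at least 7 arrays (10396) were centred per array on their median and averaged per gene, giving 6948 genes and unnamed features. Limma 3.58.1 in R 4.3.3 fitted 6 group means over all 13 arrays (lmFit, eBayes, two-sided, Benjamini-Hochberg over all genes tested), with at least 2 arrays per KMS12 window. The 3-line test used a separate fit. The calculations were tested on simulated data. Gene lists and members were chosen with earlier results of these data known. Named members were the 3 with the smallest p per role, the ends at days 4-5, and any on 1 side of 0 on all induced arrays; others described were added after their values were seen.

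Deviations from group means correlated within series over 2598 genes by 0.13, 0.28 and 0.20 (days 2-3 and uninduced) and 0.20, 0.14 and 0.12 (days 4-5 and uninduced), so the series number pairs those arrays, but not days 4-5 with days 2-3 (0.33, -0.11 and -0.12). Alternatives tried were the centring, the arrays a feature needs, the median of features, array scaling, the symbol source, the series as a block, 0 as reference and leaving out each array.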

Additional observations from a re-analysis of the deposited data

Results flagged for a closer look

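In 2 members every H929 array at day 4 lay on one side of 0 and every KMS12 array of days 4-5 on the other. RAB1B had 0.50 and 0.15 in H929 against -0.24, -0.42 and -0.35 in KMS12, a difference of 0.66 (SE 0.25, limma adjusted p = 0.311) that did not pass the test. TMED1 had 0.04 and 0.07 in H929 against -0.23, -0.31 and -0.17 in KMS12, a difference of 0.29 (SE 0.22, limma adjusted p = 0.595) that did not pass either. Of 37 members measured on these 5 arrays 2 took opposite sides (5.41%), against 317 of 3628 of all genes (8.74%), so the members did so no more often than other genes by count.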

How the results depend on the processing

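With the culture series as a replicate block no call changed: 0 members passed at days 2-3, at days 4-5 and between those windows, and 14, 4 and 14 had an unadjusted p under 0.05. For days 2-3 against uninduced, 4 members passed with features on all 13 arrays (1.46% of genes higher, 6.07% lower) and 6 against 0, where 22 had an unadjusted p under 0.05. At days 4-5 that last count was 2 with centring within classes of arrays measured, 2 with features on at least 10 arrays, 1 with features on all 13 and 2 against 0. For H929 against KMS12, 1 member passed with features on all 13 arrays (0.798% of genes higher, 1.86% lower) and 1 with the H929 mean against 0. The coat median at days 2-3 was -0.21 without centring, 0.051 with class centring, -0.00367 on at least 10 arrays, 0.0843 on all 13 and 0.0304 against 0, so its sign is not settled. On all 13 arrays the translocation median was -0.41 (-0.47 with class centring), the GTPase median was 0.0798 and the SNARE and tether median -0.0653, with 0.058 for SNAREs and tethers on at least 10 arrays. At days 4-5 the translocation median was -0.111 with class centring, -0.0553 on all 13 arrays and -0.0853 against 0. Against 0 the days 4-5 values of RPN1 (0.0723), COPE (0.098), SEC16A (-0.0205) and STX4 (-0.20) changed sign. SSR3 at days 4-5 ran from -0.10 without series 1332 to 0.57 without series 1332b. Causes of these shifts were not tested.

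Leaving out 1 array at a time, members passing ran from 0 to 8 at days 2-3, 0 to 2 between windows and 0 to 9 for the 3 lines, the highest without the 2046 array of days 2-3, the same array and the KMS12 day 4 array. Counts at an unadjusted p under 0.05 ran from 7 (without uninduced 2046) to 14 at days 2-3, 2 (without series 1332b at days 4-5) to 14 between windows, 2 (without H929 repeat 2) to 9 for H929 against KMS12 and 5 (without SKMM1) to 18 for the 3 lines. At days 2-3 medians ran from -0.90 to -0.57 for translocation, -0.18 to 0.0162 for coats, -0.35 to 0.0287 for GTPases and -0.31 to 0.0833 for SNAREs and tethers. At days 4-5 they ran from -0.45 to -0.15 for translocation, -0.26 to -0.0898 for coats, -0.24 to -0.0263 for GTPases and 0.073 to 0.21 for SNAREs and tethers. The platform's own symbols gave the same names. Of the remaining comparisons with an alternative, 332 counts and medians and 575 single-gene values kept direction and side of the threshold, or stayed within their spread, and 14 single-gene values passed only under an alternative.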
